A study of Mus musculus with 4 samples.

Results

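The genes described here encode junction proteins of the intercalated disc, the end-to-end contact between cardiomyocytes (CMs). They are 10 genes that were listed by symbol: the connexins *Gja1*, *Gja5* and *Gjc1*, the desmosomal genes *Dsp*, *Pkp2*, *Jup*, *Dsg2* and *Dsc2*, the adherens junction cadherin *Cdh2* and the scaffold gene *Tjp1*. All 10 were found among the 24454 genes of the count table through their Entrez Gene identifiers, and all 10 were among the 14266 genes that passed the filter on low counts. RNA-seq was performed on hearts at postnatal day 7 (P7), with 2 libraries of control (Ctrl) hearts, WH7 and WH8, and 2 of hearts from *miR-128* overexpression transgenic (miR-128OE) mice, WH9 and WH10. In the study's model, miR-128OE mice carried 2 alleles on a C57BL/6 background, *α-MHC*-tTA, by which the *α-MHC* promoter drives the tetracycline transactivator in CMs, and *miR-128* TetRE, a knockin at the *Rosa26* locus. Control mice of the model were given as *miR-128* TetRE alone. The doxycycline schedule of the sequenced mice was not given in the sources used here. Nothing states that the 2 libraries of a group came from separate mice, so p-values measure only the spread between these libraries.

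The intercalated disc joins CMs mechanically and electrically. Desmosomes tie the intermediate filaments of neighboring cells together through desmoglein and desmocollin cadherins, which bind plakoglobin and plakophilin, which in turn bind desmoplakin. Adherens junctions tie the actin of the sarcomeres to N-cadherin, and gap junctions built from connexins carry current from cell to cell. Variants of the desmosomal genes *Pkp2*, *Dsp*, *Dsg2*, *Dsc2* and *Jup* are the best-known causes of arrhythmogenic cardiomyopathy. After birth the junction proteins gather gradually from the sides of the CM to its ends.

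Because *miR-128* was the agent overexpressed, its sequence is given with the matches to its seed, the bases by which a microRNA pairs with the 3′UTR of a target. In the RefSeq table for GRCm38, mature miR-128-3p comes from *Mir128-1* on chromosome 1 and *Mir128-2* on chromosome 9. The capitals mark the seed, bases 2 to 8.
miR-128-3p: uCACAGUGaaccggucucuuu
A match to all 7 seed bases (CACTGTG, 7mer-m8), or to 6 of them followed by A (ACTGTGA, 7mer-A1), was found in the longest annotated 3′UTR of 3 members, *Gja5*, *Dsg2* and *Dsc2*. Among the 13495 tested genes with a 3′UTR, 31.0% had such a match. The match of *Gja5* is a 7mer-m8 on the plus strand of chromosome 3 of GRCm38, from 97052394 to 97052400, in exon 2 of its shorter transcript. It is shown with its flanks, with the match in capitals.
*Gja5* 3′UTR site: cctccagaagtCACTGTGcacacaagcat
The longest coding transcript of *Gja5* ends in another 3′UTR, in exon 4, with a 7mer-m8 from 97076411 to 97076417 and a match of 8 bases (the 7 seed bases followed by A) from 97077336 to 97077343.
*Gja5* exon 4 site 1: agttcttcaggCACTGTGtgtggcagaca
*Gja5* exon 4 site 2: gtataccattgCACTGTGAacacactctct

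*Dsc2* has a 7mer-m8 in its last exon, exon 17, on chromosome 18 from 20030790 to 20030796. *Dsg2* has a 7mer-m8 in exon 15 of its longest coding transcript, on chromosome 18 from 20604270 to 20604276. The longest 3′UTR of *Dsg2* belongs to a shorter transcript that ends at exon 8 and has another 7mer-m8. *Gja1*, *Gjc1*, *Dsp*, *Pkp2* and *Cdh2* had no match, not even to bases 2 to 7 of the seed. A match is a description of these letters and not a measured site.

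Library totals ranged from 8096870 to 14359838 counts, with the smallest in WH8. *Mir128-2* was counted 0 times in both Ctrl libraries and 2 and 10 times in WH9 and WH10, and *Mir128-1* had 0 in all 4, so the gene level gave little check of the overexpressed microRNA. The groups also differed in sex-linked genes. *Xist* was counted 14543 and 11339 times in Ctrl hearts against 94 and 132 times in miR-128OE hearts, and the Y-linked *Ddx3y* had 13 and 7 against 1442 and 1768. Sex and condition therefore cannot be told apart in any comparison below, although none of the 10 junction genes lies on a sex chromosome. The summed level of 10 CM markers was 54275 and 59218 CPM, the count as a share of the scaled library total, in Ctrl and 72644 and 71047 in miR-128OE libraries. In bulk heart RNA, fewer cells of a type and less RNA per cell cannot be told apart.

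Between Ctrl and miR-128OE hearts the junction genes moved in both directions. *Jup*, *Cdh2* and *Dsp* were higher in miR-128OE hearts and *Dsg2* and *Pkp2* were lower, so that 5 of 10 members passed the threshold, a p-value of 0.05 in the edgeR quasi-likelihood test after adjustment for all tested genes (written below as the edgeR adjusted p, with SE for the standard error of a log2 fold change). Over all tested genes 31.5% passed, with 16.5% higher and 15.0% lower. The average levels of the members lay from percentile 65.7 (*Dsc2*) to 98.2 (*Dsp*) of all tested genes. The part of level in the share that passed was not tested. The median log2 fold change of the members was 0.07, against −0.01 over all genes. The 3 connexins, *Dsc2* and *Tjp1* did not pass the threshold. For 7 of 10 members the libraries of the groups did not overlap, 4 with miR-128OE above and 3 below, against 68.1% of all genes, 33.7% above and 34.4% below.

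**Figure D1:**
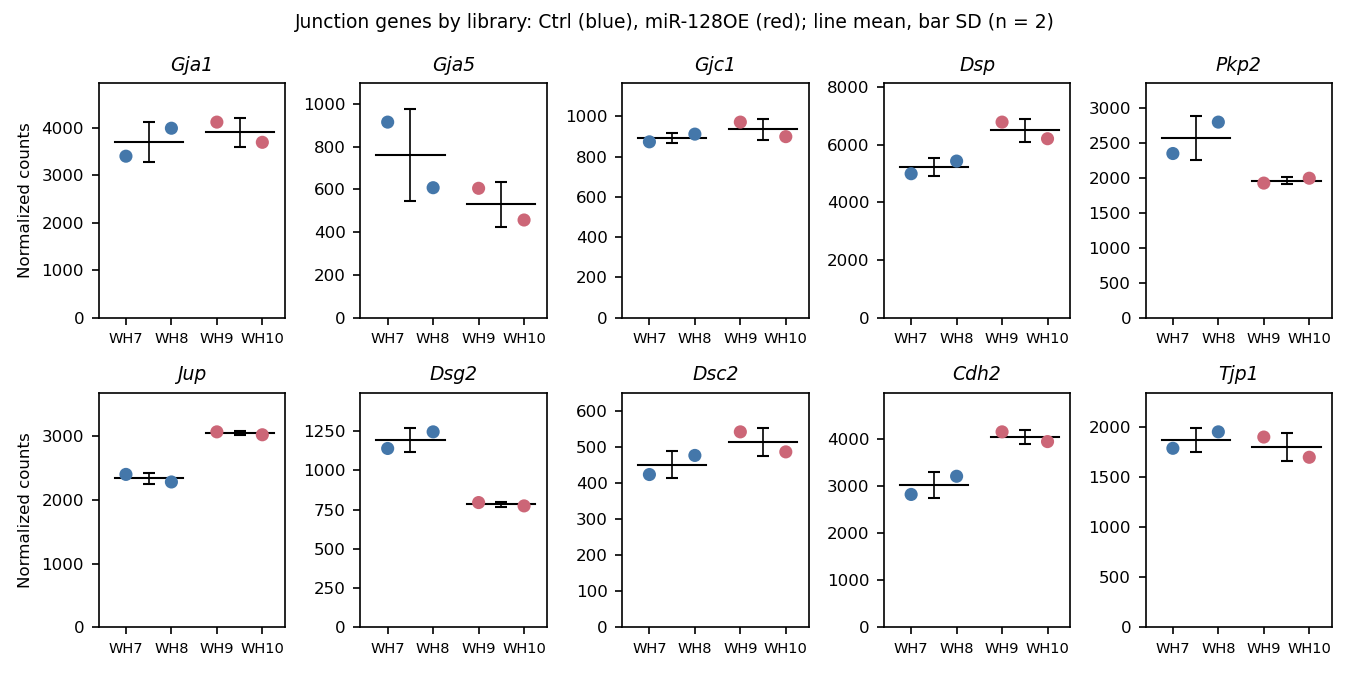
TMM-normalized counts (linear axes from 0) of the 10 junction genes in each library, with Ctrl in blue and miR-128OE in red, the mean as a line and the SD as a bar (n = 2). *Jup*, *Dsp* and *Cdh2* are higher in both miR-128OE libraries, *Dsg2* and *Pkp2* are lower, and the libraries of *Gja1*, *Gjc1* and *Tjp1* overlap between the groups.

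**Figure D2:**
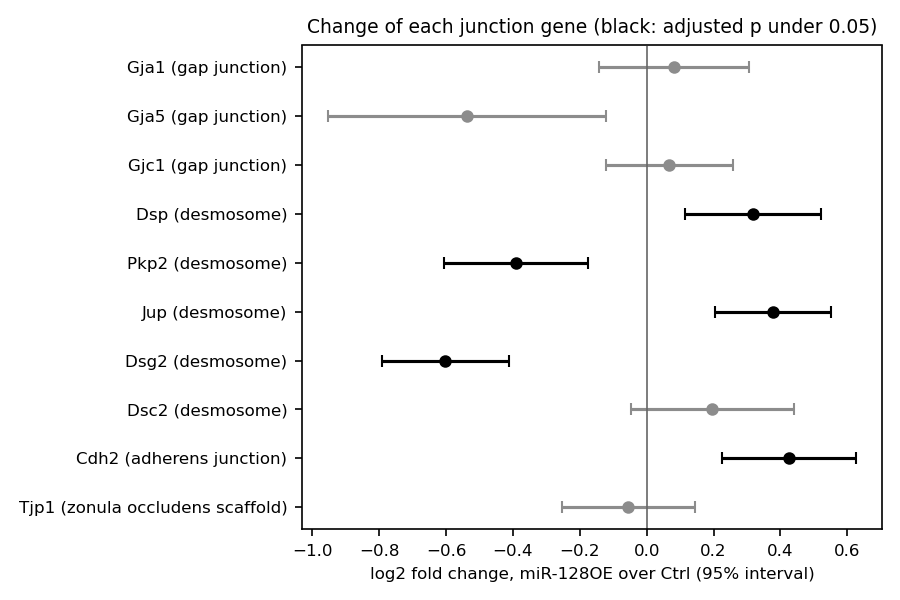
Log2 fold change of each junction gene, miR-128OE over Ctrl, with its 95% interval from edgeR's quasi-likelihood fit; black marks an adjusted p under 0.05. The values run from −0.60 for *Dsg2* to 0.43 for *Cdh2*, and the desmosomal genes lie on both sides of 0.

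Desmosomal genes passed the threshold in both directions. *Dsg2* (Entrez Gene 13511, chromosome 18 of GRCm38, 20558074 to 20604521) encodes desmoglein-2, the only desmoglein with more than a trace of reads in these hearts. It had 1139 and 1245 normalized counts in WH7 and WH8 and 795 and 774 in WH9 and WH10. Normalized counts were brought to one library size with TMM factors. Both miR-128OE libraries lay well below both Ctrl libraries, and the pairs were tight, at 1192 ± 74.8 (SD, n = 2) and 784 ± 15.0 (SD, n = 2). The log2 fold change was −0.60 (SE 0.08, edgeR adjusted p = 0.00096), a fold of 0.659. This was the only member whose call held in all of the alternatives that were run, including each library left out in turn, with log2 fold changes of −0.67 to −0.54.

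*Pkp2* (Entrez Gene 67451, chromosome 16, 16213318 to 16272712) encodes plakophilin-2, the armadillo protein that gathers desmoplakin at the plaque. It had 2347 and 2796 normalized counts in WH7 and WH8 and 1924 and 1993 in WH9 and WH10. The Ctrl pair was spread more widely than the miR-128OE pair, and the groups did not overlap. *Pkp2* had a log2 fold change of −0.39 (SE 0.10, edgeR adjusted p = 0.0132). Its 3′UTR of 475 bases, which is shorter than in most tested genes (median 1199 bases), had no seed match.

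*Jup* (Entrez Gene 16480, chromosome 11, 100368958 to 100397763) encodes plakoglobin, which binds the cadherin tails in both desmosomes and adherens junctions. It had 2397 and 2278 normalized counts in WH7 and WH8 and 3063 and 3018 in WH9 and WH10. The groups were separated by much more than the gap within either pair, for a log2 fold change of 0.38 (SE 0.08, edgeR adjusted p = 0.00589), a fold of 1.30.

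*Dsp* (Entrez Gene 109620, chromosome 13, 38151294 to 38198577) encodes desmoplakin, which reaches from the plaque to desmin filaments. It had 4993 and 5432 normalized counts in WH7 and WH8 and 6783 and 6207 in WH9 and WH10, and it was the most counted member in every library. The log2 fold change was 0.32 (SE 0.09, edgeR adjusted p = 0.0249). With library totals in place of TMM factors the call was lost (log2 fold change 0.22, edgeR adjusted p = 0.0749), a scaling under which the median of all genes was −0.11.

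*Dsc2* (Entrez Gene 13506, chromosome 18, 20030633 to 20059554) encodes desmocollin-2, the cadherin partner of desmoglein-2. Its normalized counts were 423 and 476 in WH7 and WH8 and 542 and 486 in WH9 and WH10. Both miR-128OE libraries were above both Ctrl libraries, but WH8 and WH10 differed by little. The log2 fold change was 0.20, with a 95% interval from −0.05 to 0.44 (edgeR adjusted p = 0.198), an interval that reaches past the change of *Jup*.

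Ratios within a library do not depend on how libraries are scaled. They restate the same counts, so a gene that fell set against a gene that rose was bound to differ between the groups. There were 2.69 and 2.61 counts of *Dsg2* for each count of *Dsc2* in WH7 and WH8, and 1.47 and 1.59 in WH9 and WH10. Against *Dsp*, the ratio of *Dsg2* was 0.228 and 0.229 in WH7 and WH8 and 0.117 and 0.125 in WH9 and WH10. The ratio of *Dsg2* to *Dsc2* differed less between the 2 libraries of a group than between the groups. For each count of *Jup* there were 0.979 and 1.23 of *Pkp2* in WH7 and WH8 and 0.628 and 0.661 in WH9 and WH10. The *Dsp* to *Jup* ratio was 2.08 and 2.38 in Ctrl and 2.21 and 2.06 in miR-128OE libraries, and it overlapped between groups. A ratio of uncalled genes could also lie apart. *Tjp1* to *Gja1* was 0.526 and 0.489 in WH7 and WH8 and 0.461 and 0.460 in WH9 and WH10. With 2 libraries against 2, an exact permutation test cannot reach the threshold of 0.05, and none was run on these ratios.

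**Figure D3:**
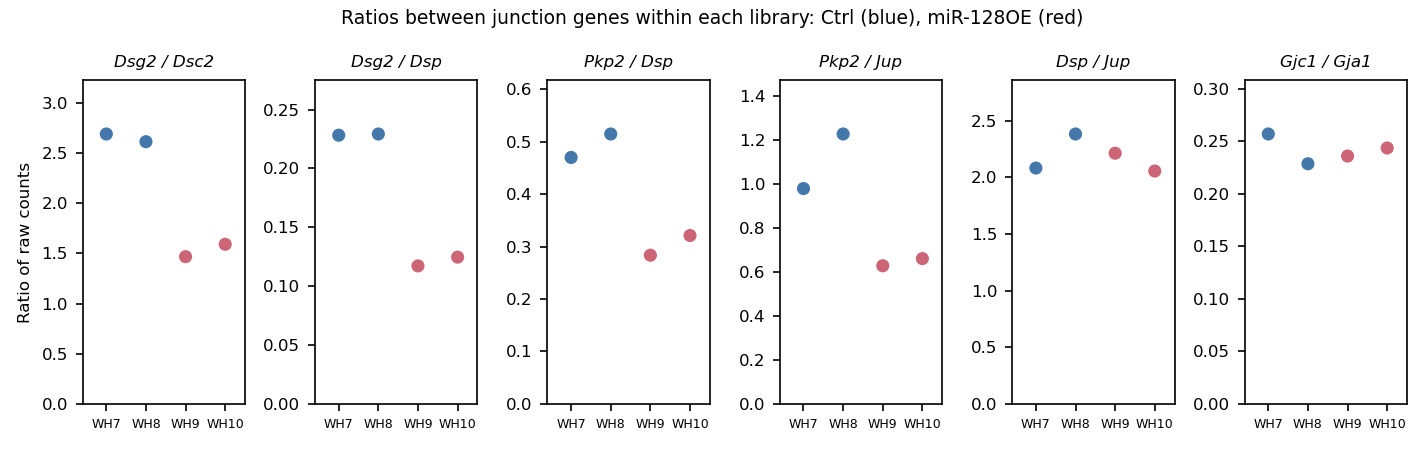
Ratios of raw counts between pairs of junction genes within each library (linear axes from 0), with Ctrl in blue and miR-128OE in red, 1 point per library. *Dsg2* to *Dsc2* is 2.69 and 2.61 in Ctrl against 1.47 and 1.59 in miR-128OE libraries, whereas *Dsp* to *Jup* and *Gjc1* to *Gja1* overlap.

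*Cdh2* (Entrez Gene 12558, chromosome 18, 16588877 to 16809246) encodes N-cadherin, the adhesion molecule of cardiac adherens junctions. It had 2822 and 3208 normalized counts in WH7 and WH8 and 4150 and 3944 in WH9 and WH10. Both values in miR-128OE hearts exceeded both in Ctrl hearts, with a log2 fold change of 0.43 (SE 0.09, edgeR adjusted p = 0.00658), a fold of 1.34. *Cdh2* and *Dsg2* both lie on chromosome 18 and moved in opposite directions, with 2.48 and 2.58 counts of *Cdh2* for each count of *Dsg2* in Ctrl and 5.22 and 5.10 in miR-128OE libraries.

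*Tjp1* (Entrez Gene 21872, chromosome 7, 65296165 to 65527781) encodes the scaffold ZO-1, which binds the tail of the *Gja1* product at the edge of gap junction plaques. Its normalized counts were 1788 and 1952 in WH7 and WH8 and 1900 and 1698 in WH9 and WH10. The groups overlapped, and the log2 fold change was −0.05 with a 95% interval from −0.25 to 0.14 (edgeR adjusted p = 0.67).

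Among the connexins, *Gja1* (Entrez Gene 14609, chromosome 10, 56377330 to 56402513) encodes Cx43, the main connexin of working ventricular muscle. It had 3401 and 3990 normalized counts in WH7 and WH8 and 4119 and 3693 in WH9 and WH10. The libraries of the groups were interleaved, and the log2 fold change was 0.08, with a 95% interval from −0.14 to 0.31 (edgeR adjusted p = 0.57), and its sign turned to −0.02 with library totals. *Gjc1* (Entrez Gene 14615, chromosome 11, 102799579 to 102819700) encodes Cx45, the connexin of the early heart tube and the nodes. Its normalized counts were 873 and 912 in WH7 and WH8 and 971 and 899 in WH9 and WH10, which overlap, with a log2 fold change of 0.07 and a 95% interval from −0.12 to 0.26 (edgeR adjusted p = 0.573). With library totals its sign turned to −0.03.

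*Gja5* (Entrez Gene 14613, chromosome 3, 96904693 to 97077416) encodes Cx40, the connexin of atrial muscle, the fast conduction system and arterial endothelium. It had 914 and 608 normalized counts in WH7 and WH8 and 605 and 457 in WH9 and WH10. WH7 stood above the rest, and WH8 and WH9 were nearly equal. The log2 fold change was −0.54 (SE 0.18, edgeR adjusted p = 0.0519), just outside the threshold, and it moved with the library left out. Without WH7 it was −0.20 (edgeR adjusted p = 0.302), and without WH8 it was −0.79 (adjusted p = 0.000416). Without WH9 it was −0.73 (edgeR adjusted p = 0.0647), and without WH10 it was −0.32 (adjusted p = 0.34).

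The libraries differed in atrial genes, and *Gja5* is also a gene of atrial muscle. The summed level of 8 atrial myocyte markers was 6087 CPM in WH7, 795 in WH8, 2285 in WH9 and 2892 in WH10. With the Ctrl libraries this far apart, 0 of 8 passed the threshold between the groups. The sarcolipin gene *Sln*, a marker of atrial muscle, had 2622 counts in WH7 and 201 in WH8. *Gja5* was at 77.6 CPM in WH7, 51.6 in WH8, 51.3 in WH9 and 38.8 in WH10. The part of atrial tissue in these values was not tested. Of 11 tested conduction system markers 3 were lower and 0 were higher, which is 27.3% called. Over all genes 31.5% were called, with 16.5% higher and 15.0% lower. The 3 were *Irx3* (log2 fold change −0.81), *Cacna2d2* (−0.69) and *Etv1* (−0.63). The conduction system markers summed to 305 and 348 CPM in Ctrl and 307 and 316 in miR-128OE libraries. *Kcne1*, which was not called, had the largest part of these sums, at 101 and 139 CPM in Ctrl and 113 and 126 in miR-128OE libraries. The arterial endothelial markers summed to 392 to 438 CPM in Ctrl and 416 to 425 in miR-128OE libraries, and 2 of 8 were higher and 2 lower. Their part in the *Gja5* values was not tested. The 5′ end of the longer annotated *Gja5* transcript overlaps exons of *Gpr89* on the other strand, and the handling of strand is not given in the sources used here. *Gpr89* had 52 to 134 counts per library, and its part in the *Gja5* values was not tested.

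**Figure D4:**
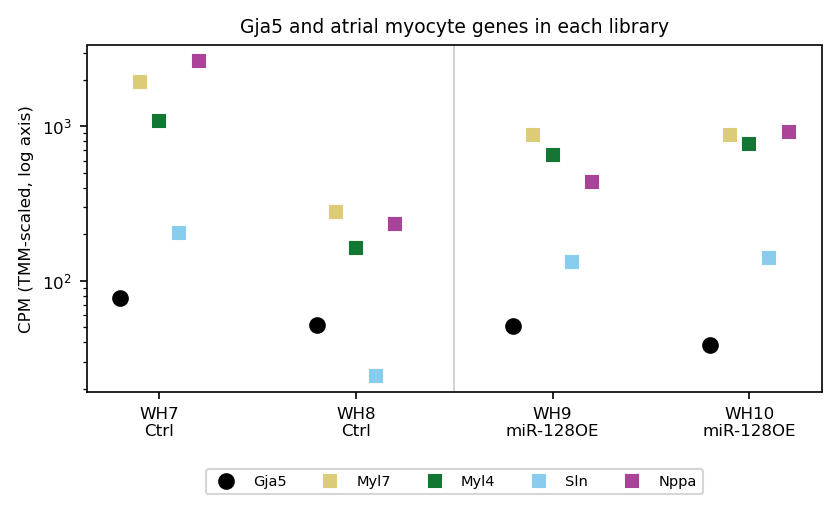
TMM-scaled CPM (log axis) of *Gja5* and of 4 atrial myocyte genes in each library, 1 point per gene and library. The atrial genes are lowest in WH8, with *Sln* at 24.1 CPM, and *Gja5* is lowest in WH10 at 38.8 CPM.

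The order of the members by level depends on the length each gene is given. As CPM per kilobase of the longest coding transcript, *Gja1* was highest, at 98.6 ± 11.1 in Ctrl against 104 ± 8.03 in miR-128OE libraries (SD, n = 2). It was followed by *Jup*, *Pkp2*, *Cdh2* and *Dsp*, then by *Gjc1*, *Tjp1*, *Gja5* and *Dsg2*, and *Dsc2* was lowest at 8.25 ± 0.685 in Ctrl and 9.42 ± 0.718 in miR-128OE libraries (SD, n = 2). On this scale, the levels from *Jup* to *Dsp* overlapped from one gene to the next, as did *Tjp1* with *Gja5* and *Gja5* with *Dsg2*. These ranges were taken over all 4 libraries. Within each of the 4 libraries *Cdh2* was above *Dsp* and *Tjp1* above *Gja5*. The other overlapping neighbors kept their order in 2 of 4. In Ctrl *Pkp2* (74.8 ± 9.23) was above *Jup* (61.9 ± 2.22), and in miR-128OE hearts *Jup* (80.5 ± 0.852) was above *Pkp2* (57.0 ± 1.43) (CPM per kilobase, SD, n = 2). When the union of all annotated exons was used as the length, *Dsp* came first and *Gja1* came to place 5. The *Gja1* union of 10257 bases covers 8 annotated transcripts and is longer than its longest coding transcript of 3182 bases. On the coding transcript scale, *Gja1* made up 63.0% and 69.1% of the summed level of the 3 connexins in WH7 and WH8 and 68.9% and 69.3% in WH9 and WH10. *Gjc1* made up 21.7% to 23.2%, and the share of *Gja5* was 14.7% in WH7 and 7.44% to 9.14% in the other libraries.

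Because most of these genes are expressed in CMs, their counts were also set against the summed counts of the 10 CM markers. That sum had risen by 0.34 on the log2 scale between the group means. The markers did not move alike, with 4 higher, 2 lower and 4 not called. *Actc1* changed most, by 1.34 on the log2 scale, *Tnnt2* (0.12) was not called, and *Ryr2* (−0.40) and *Ttn* (−0.34) were lower. Against the sum, *Dsp* had 7.81 and 7.78 counts per 1000 CM marker counts in WH7 and WH8 and 7.92 and 7.41 in WH9 and WH10. *Jup* had 3.75 and 3.26 in Ctrl and 3.58 and 3.60 in miR-128OE libraries. For both genes the groups overlapped. *Cdh2* had 4.41 and 4.60 in Ctrl and 4.85 and 4.71 in miR-128OE libraries, with groups apart but close together. *Dsg2* had 1.78 and 1.78 in Ctrl and 0.929 and 0.924 in miR-128OE libraries, and *Pkp2* had 3.67 and 4.01 against 2.25 and 2.38. *Tjp1*, which did not differ by TMM, had 2.80 and 2.80 in Ctrl and 2.22 and 2.03 in miR-128OE libraries. In the edgeR fit with this scale, which was chosen after the data were seen, 0 of 10 members were higher and 5 were lower, namely *Dsg2* (log2 fold change −0.94), *Gja5* (−0.89), *Pkp2* (−0.73), *Tjp1* (−0.40) and *Gjc1* (−0.28). This scale moved the median over all genes to −0.36 on the log2 scale, so *Tjp1* lay near that median, *Gjc1* lay above it, and the 3 others lay below it. Without a scaling standard from outside the RNA, these data do not say which scale gives the amount per CM.

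Other cell types that use the same proteins were followed by their markers. The numbers of markers called stand beside a share of 31.5% over all tested genes, with 16.5% higher and 15.0% lower. The desmosomal proteins are also abundant in epithelia. Of 8 lung and thymus epithelium markers, *Krt5* and *Foxn1* had 0 counts in all libraries, the sum was 2.52 to 3.57 CPM over the 4 libraries, and the 1 marker that could be tested, *Nkx2-1*, was lower. Epicardial and mesothelial markers summed to 141 and 69.0 CPM in WH7 and WH8 and to 91.6 and 82.9 in WH9 and WH10, and 1 of 8 was higher. Endothelial markers were level, at 1873 and 1884 CPM in Ctrl and 1956 and 1876 in miR-128OE libraries, with 2 of 8 higher and 2 lower. Fibroblast markers ranged from 6458 to 9941 CPM in Ctrl and from 8756 to 9488 in miR-128OE libraries (1 of 8 higher). Smooth muscle and pericyte markers were at 2022 and 1902 CPM in Ctrl and 2469 and 2781 in miR-128OE libraries (3 of 8 higher, 1 lower), and macrophage markers at 126 and 85.8 CPM against 94.1 and 96.8 (0 of 8 called). Of the CM markers 4 of 10 were higher and 2 were lower. Red blood cell markers (1 of 2 tested higher, with the globin genes listed at 0) and brown fat markers (3 of 4 tested higher, with sums of 37.8 to 40.4 CPM in Ctrl and 60.5 to 80.7 in miR-128OE libraries) were the other lists. Their part in the junction gene values was not tested.

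Genes related to these proteins, called partner genes here, were taken from 7 lists of 120 genes in all, of which 91 were tested. Of these, 32 were higher and 16 were lower in miR-128OE hearts, which is 52.7% against 31.5% of all genes, at a median log2 fold change of 0.14. Scaled to the CM markers instead, 7 were higher and 30 were lower, so the directions given below are those by TMM. No test was run over the lists. The partners and the CM markers, whose sum was higher in miR-128OE libraries, share many muscle genes, and the part of this in the counts was not tested. Some partner genes are also markers of other cell types used here. They are *Cdh5* and *Gja4* of endothelium, *Kcnj8* and *Abcc9* of smooth muscle and pericytes, and *Irx3* and *Tbx3* of the conduction system.

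In the list of other adherens junction and area composita proteins, 7 of 15 tested genes were higher, 2 were lower and 6 were not called. That is 60.0% called against 31.5% of all genes, at a median log2 fold change of 0.29. *Vcl*, which encodes the actin linker vinculin, changed by 0.72 on the log2 scale (edgeR adjusted p = 0.000338). *Nectin2*, a nectin adhesion molecule, had 0.45 and *Cdh13*, the GPI-anchored T-cadherin, had 0.41. The catenin genes *Ctnnb1* (0.36), *Ctnnd1* (0.36) and *Ctnna1* (0.26), which were named after their values were seen, also passed. *Afdn*, which encodes the nectin-binding protein afadin, fell by 0.40 on the log2 scale, and *Pkp4*, a plakophilin-related armadillo gene named after its value was seen, fell by 0.38.

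Among 13 tested scaffold and tight junction genes of the zonula occludens, 1 was higher, 4 were lower and 8 were not called, which is 38.5% called against 31.5% of all genes, for a median log2 fold change of −0.15. *Magi3*, a membrane-associated guanylate kinase, changed by −1.26 on the log2 scale (edgeR adjusted p = 3.9e-05), from 1850 ± 94.2 to 773 ± 69.9 normalized counts (SD, n = 2). *Cgnl1* (−0.54), which encodes paracingulin, and *Magi1* (−0.50) also fell. *F11r*, which encodes junctional adhesion molecule A, rose by 0.42.

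By TMM, the proteins that anchor the disc to the sarcomere and the cytoskeleton gave the highest share of calls among the lists. Of 24 genes, 14 were higher and 3 were lower, which is 70.8% called against 31.5% of all genes. The median log2 fold change was 0.41. With the CM marker scale the share was not the highest. On that scale 3 of the 24 genes were higher and 7 were lower, and of 13 zonula occludens genes 0 were higher and 8 were lower. Over all 14266 tested genes 591 were higher and 5833 were lower. *Xirp2*, which encodes a Xin actin-binding repeat protein, changed by 0.81 on the log2 scale (edgeR adjusted p = 0.000482). *Actn2*, the Z-disc α-actinin gene, had 0.76, *Des*, the gene for the desmin filaments that desmoplakin holds, had 0.75, and *Popdc3* had 0.57. *Lmo7* (−0.48) and *Ank3* (−0.42), which encodes ankyrin-G, were among those that fell and were named after their values were seen.

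Ion channels of the disc were split. Of 9 tested genes, 3 were higher and 2 were lower, which is 55.6% called against 31.5% of all genes. *Scn2b*, which encodes a β subunit of sodium channels, had a log2 fold change of −1.45 at a low level (43.4 and 15.5 normalized counts on average, edgeR adjusted p = 0.0195). *Kcnj2*, which encodes the inward rectifier Kir2.1, rose from 248 ± 3.28 to 555 ± 31.1 normalized counts (SD, n = 2), a change of 1.16 on the log2 scale (edgeR adjusted p = 0.000128).

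Of 20 other connexin and pannexin genes 8 were tested. *Gja3*, which encodes Cx46, was higher (log2 fold change 0.54, edgeR adjusted p = 0.0226), and *Gjc3* was lower (−0.85, adjusted p = 0.0191). The endothelial connexin gene *Gja4*, named after its value was seen, had 485 ± 40.0 and 510 ± 4.62 normalized counts (SD, n = 2), a log2 fold change of 0.07 that did not pass (edgeR adjusted p = 0.648). Of 12 other desmosomal genes 3 were tested, and 1 passed, which is 33.3% against 31.5% of all genes. It was *Perp* (log2 fold change 0.59, edgeR adjusted p = 0.00084), a tetraspan membrane protein gene. *Dsg3* and *Dsc3*, the desmosomal cadherins of stratified epithelia, had 0 counts in all 4 libraries.

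**Figure D5:**
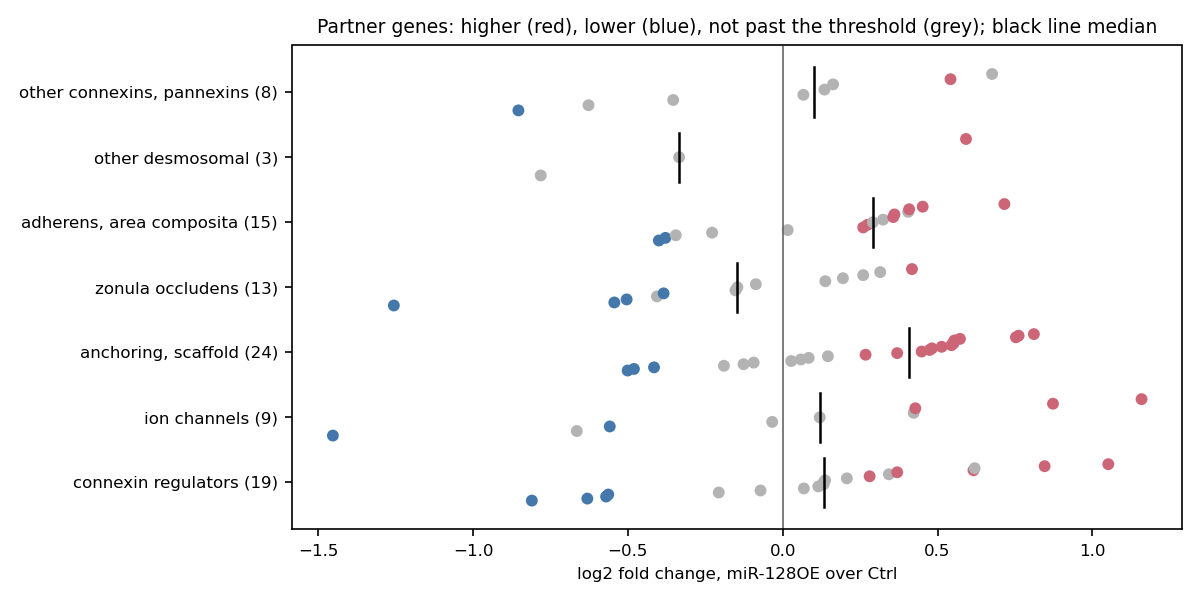
Log2 fold changes, miR-128OE over Ctrl, of the 91 tested partner genes by list, with genes past the threshold in red (higher) or blue (lower), the others in grey and the median of each list as a black line; numbers in parentheses are genes tested. Anchoring and scaffold genes lie mostly to the right (14 higher, 3 lower), and most zonula occludens genes are grey (1 higher, 4 lower).

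Genes that regulate connexins were the last list, with 5 of 19 higher and 4 lower, which is 47.4% called against 31.5% of all genes. *Nkx2-5*, a homeobox factor that supports cardiac connexin expression, changed by 1.05 on the log2 scale (edgeR adjusted p = 7.2e-05), and *Cav3*, the muscle caveolin gene, had 0.85. *Irx3*, a homeobox factor of the fast conduction system that raises *Gja5*, had 442 ± 62.5 normalized counts in Ctrl and 250.3 ± 12.4 in miR-128OE hearts (SD, n = 2), a log2 fold change of −0.81 (edgeR adjusted p = 0.00178). It is also among the conduction system markers that were lower. *Irx4* had −0.63. *Tbx5*, which also acts on *Gja5* and was named after its value was seen, had 434 ± 250.1 normalized counts in Ctrl and 686 ± 19.1 in miR-128OE hearts (SD, n = 2) and did not pass (log2 fold change 0.62, edgeR adjusted p = 0.119), nor did *Gata4* (0.14, adjusted p = 0.261).

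For each member past the threshold, the tested gene with the nearest profile was found by the Euclidean distance between centered log2 CPM values over the 4 libraries, among the 10439 genes whose average log2 CPM reached 3. It was *Ubr2* for *Pkp2* (distance 0.00565), *Rap1b* for *Jup* (0.00685), *Lims1* for *Cdh2* (0.0155), *Adora2a* for *Dsp* (0.0169) and *Stard8* for *Dsg2* (0.0197). Within the members, *Dsp* and *Cdh2* were nearest to each other (0.124). With only 4 libraries, close profiles are common.

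The calls of *Dsp*, *Pkp2* and *Jup* needed both miR-128OE libraries, and that of *Cdh2* needed WH9. Without WH9, 0 members were called higher and 1 was called lower, and without WH10 the numbers were 1 and 1, with *Dsg2* called both times. The numbers over all genes fell as well, from 2347 higher and 2143 lower to 897 and 667 without WH9 and to 1265 and 1020 without WH10.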

How the data were processed

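The deposited table holds counts per gene, which the authors made by removing low-quality reads, aligning the rest to mm10 with TopHat2 and counting reads on known genes with Bioconductor packages. Gene models, strand and reads that fit several genes are not given in the sources used here, so overlapping genes are uncertain. Counts were compared with edgeR 4.0.16 (the study's tool) in R 4.3.3, with filterByExpr (minimum count 10, total 15), TMM factors, all 4 libraries and the two-sided quasi-likelihood test, adjusted over 14266 genes by the Benjamini-Hochberg method. On simulated counts, most genes given a change of 1 or 2 on the log2 scale were recovered (78% and 96% with gene-wise dispersions). Smaller changes, such as those of the members, were not simulated, so their recovery is not known. The share of false calls exceeded the threshold when counts were drawn with gene-wise dispersions. It lay under the threshold with trended dispersions, a simulation added after that first result, so adjusted p-values may be too small. Standard errors were |log2 fold change| over the root of the F statistic. Coordinates, lengths and 3′UTRs come from GENCODE M21 of GRCm38, the assembly of mm10, and miRNA sequences from RefSeq. Symbols were matched for 24374 of 24454 identifiers. Replicate libraries differed by more than counting noise (chi-square per degree of freedom 12.4 and 5.82).

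Named genes were all 10 members, up to 4 genes per list past the threshold with the largest changes and no overlap between groups, and genes the paper names, and the text marks other partner genes as named after their values were seen. The members and lists were chosen with earlier results of these data known. Alternatives were other size factors, filters and lengths, an offset for GC content and exon length (loess, span 0.5), autosomal genes, DESeq2 1.42.0, limma-voom (limma 3.58.1) and each library left out. The CM marker scale, the coding transcript length and the 3′UTR of the longest coding transcript were added after the data were seen. Hearts at P1 and P28 were not analysed here. Some genes that the rule names are not reported here.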

Additional observations from a re-analysis of the deposited data

How the results depend on the processing

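*Dsg2* stayed lower and past the threshold in all 14 alternatives. The 14 include the CM marker scale, under which the log2 fold change was −0.26 for *Gja1*, 0.0337 for *Jup* (adjusted p = 0.803), 0.0855 for *Cdh2* (0.464), −0.0236 for *Dsp* (0.858), −0.28 for *Gjc1* (0.0393), −0.40 for *Tjp1* (0.00797) and −0.89 for *Gja5* (0.00872), all from the edgeR test. *Gja5* also passed with upper-quartile factors (−0.58), library totals (−0.64), no filter (−0.53) and at least 50 counts in 2 libraries (−0.56), and *Dsp* lost its call with library totals (0.22). The cause was not tested. With each library left out, log2 fold changes ranged from −0.79 to −0.20 for *Gja5*, 0.26 to 0.40 for *Dsp*, −0.51 to −0.26 for *Pkp2*, 0.35 to 0.42 for *Jup* and 0.34 to 0.52 for *Cdh2*. Members called ranged from 0 to 3 higher and from 1 to 3 lower, partner genes from 15 to 36 higher and from 2 to 18 lower, and all genes from 897 to 2654 higher and from 667 to 2384 lower. The lone library left in a group was assumed to vary like the other group. By the CM marker scale 0 members were higher and 5 lower, 7 partner genes higher and 30 lower, and 591 genes higher and 5833 lower. DESeq2 called 1410 genes lower. By library totals 1612 genes were higher and 2945 lower, so 35.4% of calls were higher, against 52.3% by TMM, 44.2% by upper-quartile factors, 58.8% with the GC and length offset and 9.2% by the CM marker scale. Only 2 of 10 members kept their place in the order of levels when the length was that of the longest transcript, annotated or coding. With matches to bases 2 to 7 of the seed, 5 of 10 members had a match, against 47.1% of the tested genes with a 3′UTR. With library totals the log2 ratio of summed markers was 0.24 for CMs, −0.0705 for endothelium and −0.54 for lung and thymus epithelium. Groups of 2 limit every p-value here.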
